A study of Mus musculus with 20 samples.

Results

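The genes described here are 10 genes of antigen presentation by the major histocompatibility complex (MHC), chosen by name from the 38784 gene symbols of the deposited count table. They are the class II genes H2-Aa, H2-Ab1, H2-Eb1 and Cd74, the class I genes H2-K1, H2-D1 and B2m, and the peptide supply genes Tap1, Psmb8 and Psmb9. All 10 were found in the table, and all 10 passed the filter on low counts in both assays. The samples were livers from FVB/N mice, 6 to 8 weeks old, injected in the tail vein with 0.5 mg/kg of siRNA packed in lipid nanoparticles, with 1 injection per 5 days. The siRNA was directed against Eif3m, a subunit gene of the translation initiation factor eIF3, or was a scrambled luciferase sequence, the control. Livers were taken at day 9 (3 Eif3m siRNA mice and 3 control siRNA mice) or at day 13 (2 and 2 mice), and every mouse gave 1 RNA-seq library and 1 ribosome footprint library. All mice carried the nanoparticle and an siRNA, so an untreated liver was not among the groups. The siRNA reached the whole animal by the blood, and the labels do not say which liver cells took it up.

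A ribosome footprint is the piece of messenger RNA that a translating ribosome shields from nuclease, and its count depends on how much message there is and on how densely ribosomes sit on it. Total counts per library were 34.7 to 39.02 M counts (M, mega) in Eif3m RNA and 27.4 to 37.8 M in control RNA at day 9, and 4.96 to 19.8 M in Eif3m RNA and 24.3 to 26.4 M in control RNA at day 13. For footprints they were 4.50 to 6.16 M with Eif3m siRNA and 7.04 to 7.69 M with control siRNA at day 9, and 1.64 to 6.52 M and 1.97 to 2.12 M at day 13. RNA libraries came from KAPA mRNA capture at day 9 and from NeoPrep at day 13, and in RNA the effect of kit and that of day cannot be told apart, while footprint libraries used 1 kit on both days. Eif3m, the targeted gene, was checked first: its footprints changed by -3.61 ± 0.17 at day 9 (log2 of Eif3m over control siRNA, SE, adjusted p = 4.9e-11) and by -4.58 ± 0.26 at day 13 (adjusted p = 1.7e-09), and every Eif3m siRNA library was below every control library in both assays. All 6 hepatocyte marker genes were detected in every group. Their summed footprints averaged 113338 counts per M counts in Eif3m livers and 178118 in control livers at day 9, and 125894.5 and 236916 at day 13. In RNA the sums averaged 110687 and 149614 at day 9, and 166077 and 276347 at day 13.

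MHC class II molecules present peptides from material that a cell has taken up, and are found mainly on dendritic cells, macrophages and B cells. In liver, Kupffer cells, sinusoidal endothelium and dendritic cells are known to carry them. H2-Aa and H2-Ab1 encode the alpha and beta chains of the I-A molecule, H2-Eb1 encodes the beta chain of I-E, and Cd74 encodes the invariant chain that escorts class II molecules to the endosome. MHC class I molecules show peptides from inside the cell on nearly every nucleated cell, hepatocytes included. H2-K1 and H2-D1 encode heavy chains, B2m encodes the light chain beta-2 microglobulin, Tap1 encodes a subunit of the transporter that carries peptides into the endoplasmic reticulum, and Psmb8 and Psmb9 encode catalytic subunits of the immunoproteasome, the interferon-inducible form of the proteasome. CIITA, encoded by Ciita, is the coactivator of class II promoters, and NLRC5 is the related coactivator of class I promoters. FVB/N mice carry the H-2q haplotype, and how well their reads matched the alleles of the reference used by the authors was not tested.

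The sequences below are shown because class II promoters and, in a related form, promoters of class I heavy chains and B2m are known for a shared arrangement of boxes that these coactivators use, and because Tap1 and Psmb9 lie head to head. RefSeq promoter windows (GRCm38.p6, 250 bases before to 50 bases after a gene's start) matched 8 of the 10 genes; H2-Ab1 and Cd74 are named only. Every stretch printed lies before the start of its gene and is written 5′ to 3′ on the strand of that gene. The letters are those of the reference genome, and whether the FVB/N mice carry the same letters was not tested. Capitals mark TGANG followed by ATTGG on the same strand with 10 to 25 bases between them (where TGANG matched at overlapping positions, in H2-Eb1 and H2-D1, the match nearer to ATTGG), and also GGGGA directly followed by TTCCC, and a pair of GAAA with 2 bases between them, where they occur.
H2-Aa, chr17:34287852-34287912, minus strand: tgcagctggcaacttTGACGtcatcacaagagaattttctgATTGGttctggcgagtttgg
H2-Eb1, chr17:34305769-34305827, plus strand: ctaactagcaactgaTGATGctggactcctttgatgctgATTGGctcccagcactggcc
H2-K1, chr17:34000348-34000463, minus strand: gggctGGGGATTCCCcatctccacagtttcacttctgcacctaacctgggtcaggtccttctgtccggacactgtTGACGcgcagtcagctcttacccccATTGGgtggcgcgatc
H2-D1, chr17:35262918-35263037, plus strand: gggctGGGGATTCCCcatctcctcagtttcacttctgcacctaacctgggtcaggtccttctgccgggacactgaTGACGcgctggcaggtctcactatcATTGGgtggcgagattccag
B2m, chr2:122147543-122147653, plus strand: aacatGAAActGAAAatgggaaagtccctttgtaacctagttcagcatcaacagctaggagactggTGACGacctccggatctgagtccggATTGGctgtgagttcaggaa

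The pair TGANG and ATTGG was found in the windows of H2-Aa, H2-Eb1, H2-K1, H2-D1 and B2m, that is in 5 of 8 genes, against 3.77% of all 32817 promoter windows, both strands read. GGGGA directly followed by TTCCC was found in H2-K1 and H2-D1, against 0.107% of all windows, and the pair of GAAA in B2m, against 3.43%. ATTGG is the reverse complement of CCAAT, and CCAAT on either strand was found in 7 of 8 genes, Psmb8 being the exception, against 37.4% of all windows. The motifs were chosen after the sequences had been seen, and a match describes these letters and not a bound site. The windows of Tap1 and Psmb9, which run in opposite directions, share 275 of their 300 bases, and the 225 bases that precede both starts are shown on the strand of Tap1 with CCAAT in capitals.
Tap1 and Psmb9, chr17:34187331-34187555, plus strand: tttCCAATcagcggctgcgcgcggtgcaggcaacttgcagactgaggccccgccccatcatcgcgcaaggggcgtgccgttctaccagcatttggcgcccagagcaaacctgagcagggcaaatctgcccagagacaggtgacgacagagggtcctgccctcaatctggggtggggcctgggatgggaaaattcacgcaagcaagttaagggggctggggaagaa

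The design first asks which of the 10 genes differed between Eif3m and control siRNA on each day. Levels are given as CPM (counts per M counts of the library, with library sizes scaled by TMM within each assay), and changes as log2 of Eif3m over control siRNA with their SE. A gene was called at an adjusted p below 0.05 by edgeR's quasi-likelihood test, with Benjamini-Hochberg adjustment over all genes tested, and every adjusted p below is of this kind unless DESeq2 is named. Day 9 RNA held 0 calls among the 10 genes (5.67% of all tested genes were called), with 1 gene at an unadjusted p under 0.05 (20.6% of tested genes) and 1 call by DESeq2, in each case H2-D1. Day 9 footprints held 2 calls, both higher, Cd74 and H2-D1 (14.7% called, 6.84% higher). Day 13 RNA held 3 calls, all lower and all class II (16.0% called, 9.87% lower). Day 13 footprints held 4 calls, all lower, 3 of them class II and the fourth H2-K1 (12.4% called, 6.26% lower). The class II median change was 0.30 in day 9 RNA and 0.46 in day 9 footprints, against medians of -0.00 and 0.02 over all genes tested. At day 13 it was -1.22 in footprints, against 0.02 over all genes, and in RNA the 3 genes other than H2-Eb1 had a median of -1.54, against -0.16. At day 13 the groups did not overlap for 6 of the 10 genes in RNA and 8 in footprints, Eif3m livers being lower each time, a pattern that 29.0% and 27.1% of tested genes had too. At day 9 Eif3m livers were above control livers without overlap for 3 of the genes in RNA (18.9% of tested genes) and 4 in footprints (15.6%), and B2m footprints were below control livers without overlap (16.3% of tested genes).

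**Figure D1:**
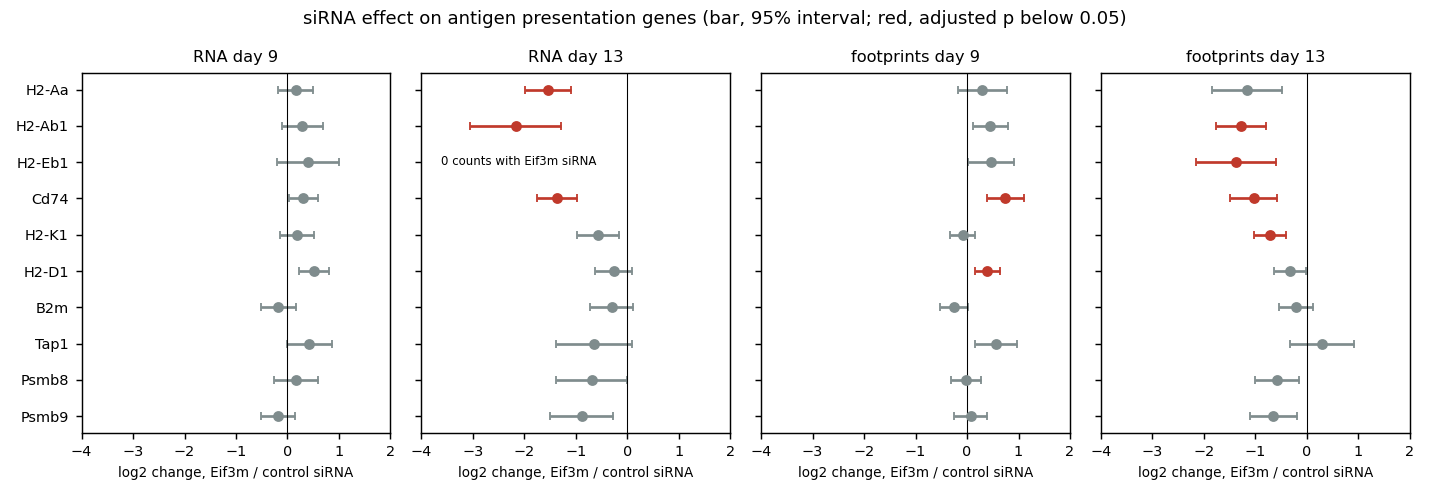
Log2 change of Eif3m over control siRNA for the 10 genes, with bars of 1.96 SE (95% intervals), in RNA and footprints of both days; red points have an adjusted p below 0.05. At day 13 the class II genes at the top have changes of -2.16 to -1.03, H2-Eb1 RNA, with 0 counts in Eif3m livers, being marked but not plotted, and the class I and peptide supply genes below them lie nearer to zero.

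Class II genes held most of the calls. At day 9, Cd74 footprints were higher in Eif3m livers, and no class II gene was lower in either assay. At day 13, class II genes were lower in Eif3m livers in RNA and in footprints: Cd74 and H2-Ab1 fell in both assays, H2-Aa in RNA and H2-Eb1 in footprints. The effect of the siRNA differed between the days for Cd74 and H2-Ab1 in both assays and for H2-Aa in RNA.

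In day 9 footprints, Cd74 had 752, 534 and 615 CPM in the 3 Eif3m livers, against 344, 376 and 414 CPM in the 3 control livers. The groups did not overlap, and every Eif3m liver was above every control liver. The change was 0.75 ± 0.18 on the log2 scale, or 1.68-fold (adjusted p = 0.012). Without Eif3m replicate 1 the change was 0.60 (adjusted p = 0.053), and without control replicate 1 it was 0.68 (adjusted p = 0.057). H2-Ab1 footprints were 127, 100.2 and 126 CPM in Eif3m livers, against 72.1, 85.3 and 99.97 CPM in control livers, and the change of 0.46 ± 0.17 missed the threshold (adjusted p = 0.085). The lowest Eif3m value and the highest control value of H2-Ab1 lay next to each other. H2-Eb1 footprints were 20.9, 13.2 and 12.2 CPM in Eif3m livers and 9.13, 11.9 and 11.96 CPM in control livers, a change of 0.46 ± 0.23 (adjusted p = 0.19). H2-Aa footprints were 117, 77.6 and 109.5 CPM in Eif3m livers and 61.2, 82.4 and 103 CPM in control livers, and the groups overlapped (0.30 ± 0.24, adjusted p = 0.45).

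In day 9 RNA the class II genes had changes between 0.16 and 0.40 on the log2 scale, and none passed the test. Cd74 RNA was 196, 140.2 and 165 CPM in Eif3m livers, against 122, 129.8 and 153 CPM in control livers, so the groups overlapped (0.31 ± 0.14, adjusted p = 0.25). H2-Aa RNA averaged 53.6 ± 8.77 CPM in Eif3m livers and 47.98 ± 8.52 CPM in control livers (SD, n = 3 each). H2-Eb1 was scarce in these RNA libraries, at 1.20 to 1.75 CPM in Eif3m livers and 1.05 to 1.19 CPM in control livers.

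In day 13 RNA, H2-Aa had 17.2 and 15.3 CPM in the 2 Eif3m livers, against 40.6 and 54.6 CPM in the 2 control livers. Both Eif3m values lay far below both control values, and the change was -1.54 ± 0.23 (adjusted p = 0.00095), a level 2.90-fold lower in Eif3m livers. Cd74 RNA was 11.2 and 12.03 CPM in Eif3m livers, against 31.0 and 28.3 CPM in control livers, a change of -1.36 ± 0.20 (adjusted p = 0.00084). The calls of H2-Aa and Cd74 held in 17 of 17 alternatives. H2-Ab1 RNA was 0.66 and 0.72 CPM in Eif3m livers, against 3.93 and 2.14 CPM in control livers, a change of -2.16 ± 0.45 (adjusted p = 0.0072). Those Eif3m values rest on few reads, and without Eif3m replicate 1 the change was -2.02 (adjusted p = 0.13). H2-Eb1 had 0 counts in both Eif3m RNA libraries and 4 and 2 counts in the control RNA libraries, too few for a fold change.

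In day 13 footprints, which were made with the same kit as at day 9, Cd74 had 214 and 137 CPM in Eif3m livers, against 279 and 429.97 CPM in control livers. The change was -1.03 ± 0.23 (adjusted p = 0.0083), a level 2.05-fold lower in Eif3m livers. H2-Ab1 footprints were 33.02 and 26.7 CPM in Eif3m livers, against 51.1 and 89.9 CPM in control livers (-1.28 ± 0.25, adjusted p = 0.0022). H2-Eb1 footprints were 5.25 and 5.08 CPM in Eif3m livers, against 7.83 and 18.2 CPM in control livers (-1.38 ± 0.40, adjusted p = 0.028). In all 4 class II genes the higher of both Eif3m livers was below the lower of both control livers, while the 2 control livers themselves differed widely, replicate 2 being the higher. H2-Aa footprints were 36.4 and 23.9 CPM in Eif3m livers, against 48.2 and 80.1 CPM in control livers, and the change of -1.16 ± 0.35 missed the threshold (adjusted p = 0.052), although it passed in 8 of the alternatives. Single libraries decided these calls. Without control replicate 2 the changes of Cd74, H2-Ab1 and H2-Eb1 were -0.69, -0.81 and -0.67 (adjusted p = 0.12, 0.083 and 0.52), and without Eif3m replicate 2, the deepest footprint library of that day, they were -0.72, -1.08 and -1.35 (adjusted p = 0.16, 0.10 and 0.29). H2-Eb1 also lost its call without Eif3m replicate 1 (-1.37, adjusted p = 0.075).

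**Figure D2:**
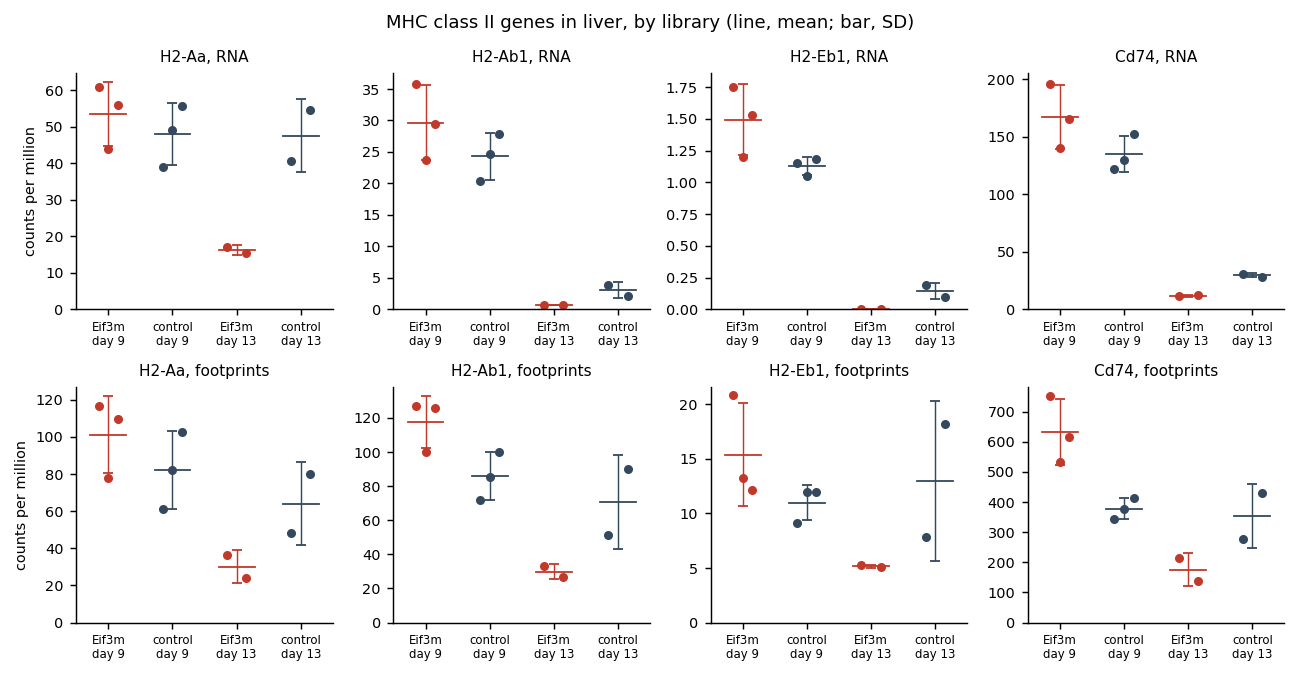
CPM of the 4 class II genes in each library, RNA above and footprints below, with 1 point per mouse, the group mean as a line and the SD as a bar (3 mice per group at day 9, 2 at day 13). At day 13 both Eif3m livers lie below both control livers in every panel, and at day 9 the 3 Eif3m livers have Cd74 footprints of 534 to 752 CPM, above the 344 to 414 CPM of the control livers.

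The day 13 effect minus the day 9 effect was tested in the same fits. For Cd74 it was -1.67 ± 0.24 in RNA (adjusted p = 0.013) and -1.78 ± 0.30 in footprints (adjusted p = 0.011). For H2-Ab1 it was -2.45 ± 0.50 in RNA (adjusted p = 0.039) and -1.74 ± 0.30 in footprints (adjusted p = 0.010). For H2-Aa it was -1.70 ± 0.28 in RNA (adjusted p = 0.024), and -1.46 ± 0.42 in footprints did not pass (adjusted p = 0.18). H2-Eb1 footprints had a difference of -1.84 ± 0.46 that did not pass either (adjusted p = 0.072). These are 3 of the 10 genes in RNA and 2 in footprints, all lower. Across the genes tested, 1.23% differed between the days in RNA (0.888% lower) and 0.819% in footprints (0.598% lower). The RNA differences lost their call in several fits with 1 library left out: the count of called genes among the 10 then ran from 0 to 7, with 0 without Eif3m replicate 2 of day 13 and also without Eif3m replicate 3 or control replicate 2 of day 9. In footprints the count ran from 0 to 3, with 0 without control replicate 2 or Eif3m replicate 2 of day 13.

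Footprints of both days were made with the same kit, but the days are separate sets of mice with libraries of different depth, so day and sample set cannot be told apart in footprints either. In Eif3m livers all 4 class II genes were lower at day 13 than at day 9, by -2.01 ± 0.22 for H2-Ab1 (adjusted p = 2.1e-05), -1.87 ± 0.22 for Cd74 (adjusted p = 5.8e-05), -1.81 ± 0.31 for H2-Aa (adjusted p = 0.0024) and -1.57 ± 0.32 for H2-Eb1 (adjusted p = 0.0023). In control livers the same 4 genes had changes of -0.28, -0.09, -0.35 and 0.27 between the days, and none passed the test. Of the 10 genes, 6 were called between the days in Eif3m livers, all lower at day 13 (18.9% of tested genes were called, 8.72% lower), and 1 in control livers, higher at day 13 (10.3% called, 5.47% higher). Psmb8 was among the 6 (-0.70 ± 0.19, adjusted p = 0.013), as was H2-K1 (-0.43 ± 0.15, adjusted p = 0.043), whose call was lost without any 1 of several libraries, with adjusted p of up to 0.49. Without Eif3m replicate 2 of day 13, Cd74 and H2-Ab1 alone were called. The gene called in control livers was H2-D1 (0.77 ± 0.14, adjusted p = 0.0019).

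The 3 class I genes held 1 footprint call on each day and none in RNA: H2-D1 rose at day 9 and H2-K1 fell at day 13. H2-D1 footprints rose at day 9, with 183, 148 and 147 CPM in Eif3m livers, against 122, 127 and 114 CPM in control livers. The groups did not overlap, and the change was 0.40 ± 0.13 (adjusted p = 0.038), a call that was lost in 9 of 17 alternatives with adjusted p of 0.050 to 0.13. H2-D1 RNA at day 9 was 498, 382 and 432 CPM in Eif3m livers, against 303, 313 and 306 CPM in control livers. Every Eif3m liver was higher, and the change of 0.51 ± 0.15 missed the threshold (adjusted p = 0.066), while DESeq2 called it (adjusted p = 0.0093). At day 13 H2-D1 did not pass in RNA (-0.26 ± 0.18, adjusted p = 0.36) or in footprints (-0.33 ± 0.16, adjusted p = 0.20).

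H2-K1 footprints fell at day 13, with 147 and 120.01 CPM in Eif3m livers, against 231 and 204 CPM in control livers (-0.72 ± 0.16, adjusted p = 0.0053). The call was lost without control replicate 1 (-0.62, adjusted p = 0.074), without Eif3m replicate 2 (-0.56, adjusted p = 0.16) and with library totals as the only scaling (-0.40, adjusted p = 0.080). H2-K1 RNA at day 13 was 320 and 224 CPM in Eif3m livers, against 464 and 340.3 CPM in control livers, a change of -0.56 ± 0.21 that missed the threshold (adjusted p = 0.086). At day 9 H2-K1 had changes of 0.18 ± 0.17 in RNA and -0.08 ± 0.13 in footprints, and its groups overlapped in both assays. B2m was measured most deeply of the 10 genes, and none of its siRNA effects passed. Its footprints were 1564, 1362 and 1680.5 CPM in day 9 Eif3m livers, against 1998, 1722 and 1772 CPM in control livers (-0.25 ± 0.14, adjusted p = 0.22), and 1444 and 1025 CPM in day 13 Eif3m livers, against 1482 and 1374 CPM (-0.21 ± 0.17, adjusted p = 0.47). B2m RNA changed by -0.18 ± 0.17 at day 9 and by -0.30 ± 0.21 at day 13 (adjusted p = 0.62 and 0.36). H2-K1 and H2-D1 belong to a family of near-identical copies, and 17 and 19 of the 20 libraries have fractional counts for them, as when reads are divided between copies, so how reads were split between these genes is uncertain.

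Of the peptide supply genes, none passed the test for an siRNA effect in either assay on either day. Tap1 footprints at day 9 were 39.1, 22.4 and 22.2 CPM in Eif3m livers, against 15.3, 22.5 and 17.6 CPM in control livers (0.57 ± 0.21, adjusted p = 0.075), with replicate 1 of the Eif3m livers well above the rest. At day 13 Tap1 footprints were 18.6 and 23.2 CPM in Eif3m livers and 16.5 and 18.6 CPM in control livers (0.30 ± 0.32, adjusted p = 0.62). Psmb8 footprints at day 13 were 37.2 and 30.0 CPM in Eif3m livers, against 53.7 and 44.8 CPM in control livers (-0.58 ± 0.22, adjusted p = 0.093). Psmb9 footprints at day 13 were 25.8 and 22.9 CPM in Eif3m livers, against 32.5 and 42.6 CPM in control livers (-0.65 ± 0.24, adjusted p = 0.078). In these footprints both subunits had every Eif3m liver below every control liver at day 13, as did 27.1% of tested genes. Psmb8 RNA overlapped between the groups. Both were called in footprints when day 13 was fitted alone (adjusted p = 0.041 for Psmb8 and 0.033 for Psmb9). The share of all genes called in that fit is not given here. In day 13 RNA these 3 genes were low in all livers: Tap1 had 2.56 and 3.45 CPM in Eif3m livers against 6.33 and 2.60 CPM in control livers, Psmb8 3.37 and 5.07 CPM against 8.78 and 3.94 CPM, and Psmb9 1.91 and 1.32 CPM against 3.69 and 2.64 CPM. Leaving out control replicate 2 of day 13 RNA gave calls for Tap1 (-1.18, adjusted p = 0.0062), Psmb8 (-1.18, adjusted p = 0.0061), Psmb9 (-1.12, adjusted p = 0.023) and H2-K1 (-0.78, adjusted p = 0.017), so 7 genes were then called, all lower, in a fit that called 16.9% of all tested genes lower.

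**Figure D3:**
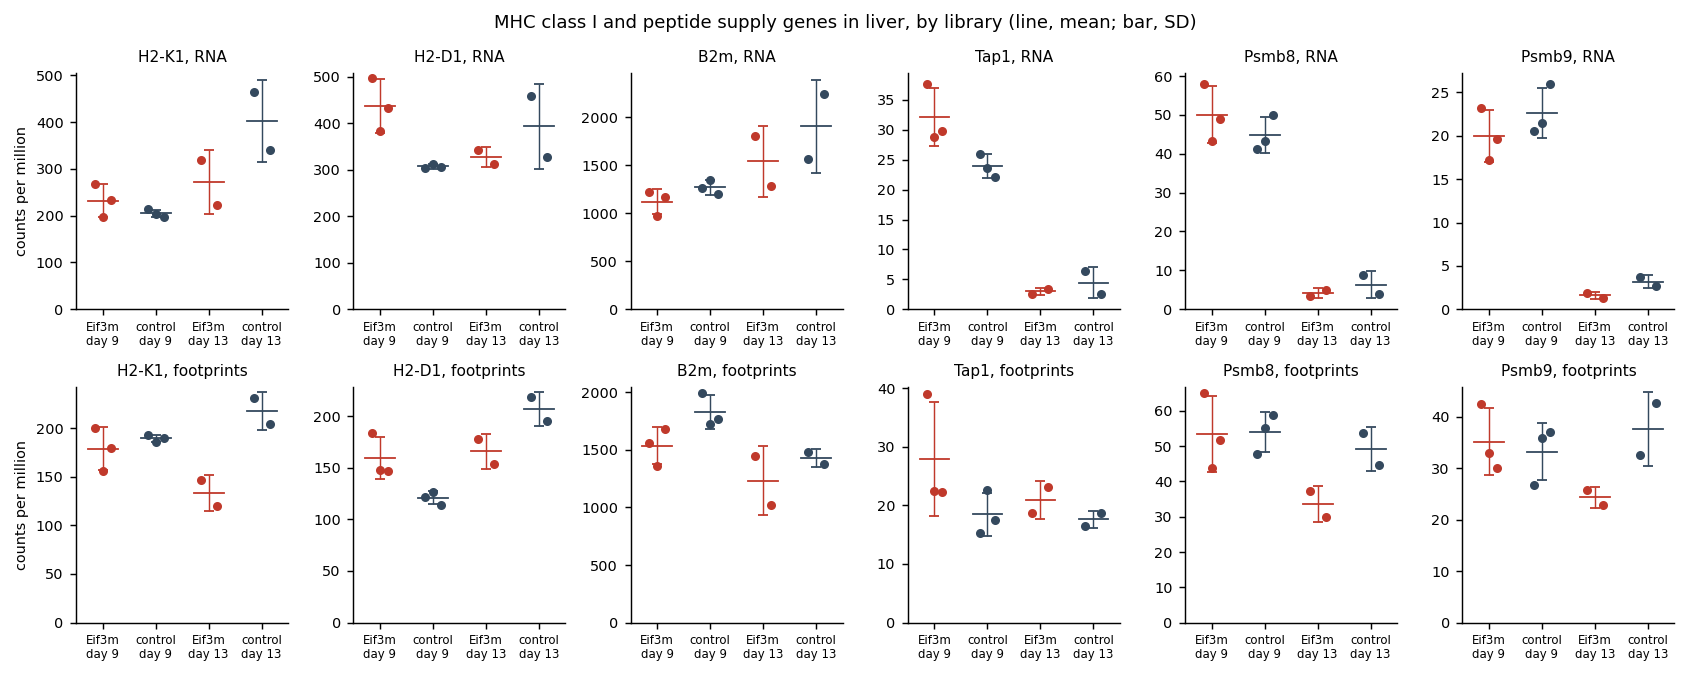
CPM of H2-K1, H2-D1, B2m, Tap1, Psmb8 and Psmb9 in each library, RNA above and footprints below, with 1 point per mouse, the mean as a line and the SD as a bar. H2-K1 footprints at day 13 are 120.01 and 147 CPM in Eif3m livers, below the 204 and 231 CPM of control livers, and RNA of Tap1, Psmb8 and Psmb9 is at most 8.78 CPM in all day 13 livers.

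RNA levels were not tested between the days, because kit, day and set of mice changed together. Which of these goes with the control values below was not tested. In control RNA the mean CPM at day 9 was 7.99-fold that of day 13 for H2-Ab1, 7.89-fold for H2-Eb1, 7.17-fold for Psmb9, 7.05-fold for Psmb8, 5.35-fold for Tap1 and 4.56-fold for Cd74. H2-Aa, whose protein pairs with that of H2-Ab1, had 1.01-fold, H2-D1 0.781-fold, B2m 0.666-fold and H2-K1 0.510-fold. In control footprints the same 10 genes changed between the days by -0.36 to 0.77 on the log2 scale, and the constitutive subunit gene Psmb5 had RNA of 3.46 and 5.21 CPM at day 13 against 68.3 to 73.2 CPM at day 9. The siRNA effect within day 13 compares libraries of 1 kit.

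Translational efficiency, the footprint change minus the RNA change, addresses whether ribosomes left these messages or whether the messages themselves changed. No gene of the 10 was called on day 9 or day 13 or for the difference between the days, 0 of the 10 had an unadjusted p under 0.05, and DESeq2 called 0. Few genes were called at all (0.00% at day 9, 0.0211% at day 13 and 0.00% for the difference), while 4.86%, 10.0% and 5.37% had an unadjusted p under 0.05. At day 9 the efficiency changes ran from -0.27 ± 0.20 for H2-K1 to 0.43 ± 0.25 for Cd74. For Cd74 the log2 ratio of footprints to RNA was 1.92 ± 0.02 in Eif3m livers and 1.48 ± 0.05 in control livers (SD, n = 3 each), and the groups did not overlap. At day 9 the ratio of Cd74 was the 1 of 10 that lay above control livers in every Eif3m liver (9.31% of genes), and those of H2-K1 and Psmb8 lay below in every Eif3m liver (7.33%). At day 13 the ratio of H2-Aa lay above without overlap (25.5% of genes) and that of H2-Eb1 below (13.0%). Both Eif3m RNA libraries had 0 counts of H2-Eb1, so its ratio there rests on the 0.5 CPM added to both values. The fitted efficiency change of H2-Eb1 had the opposite sign (2.97, SE 2.0), and no direction is read from either value. At day 13 the SE of an efficiency change was 0.24 to 0.55 for the 9 genes other than H2-Eb1, so the interval of 1.96 SE for H2-Ab1 ran from -0.27 to 1.90 and that for H2-Aa from -0.51 to 1.12. Changes of that size were not resolved with 2 mice per group.

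Set against other genes of control liver at day 9, class II messages had many footprints for their RNA. Of 7883 genes with at least 5 CPM in both assays, the median log2 ratio of footprints to RNA was 0.00. H2-Ab1 stood at 1.80, the 99.1 percentile, Cd74 at 1.48 (97.7) and H2-Aa at 0.77 (85.9). H2-Eb1 averaged 1.13 CPM in that RNA, below the limit, and is not ranked. Among class I genes H2-D1 stood at -1.34 (percentile 6.99), H2-K1 at -0.12 (44.1) and B2m at 0.53 (76.7). Tap1 stood at -0.36 (32.5), Psmb8 at 0.27 (63.6) and Psmb9 at 0.54 (77.2). These ratios also include whatever the KAPA and ART-seq kits do to a message, and in day 13 controls the ratio was 4.32 ± 1.10 for H2-Ab1 and 3.53 ± 0.54 for Cd74 (SD, n = 2) with the other RNA kit. No transcript or coding lengths were used, so the ranking also includes any difference between genes in the coding share of the message.

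**Figure D4:**
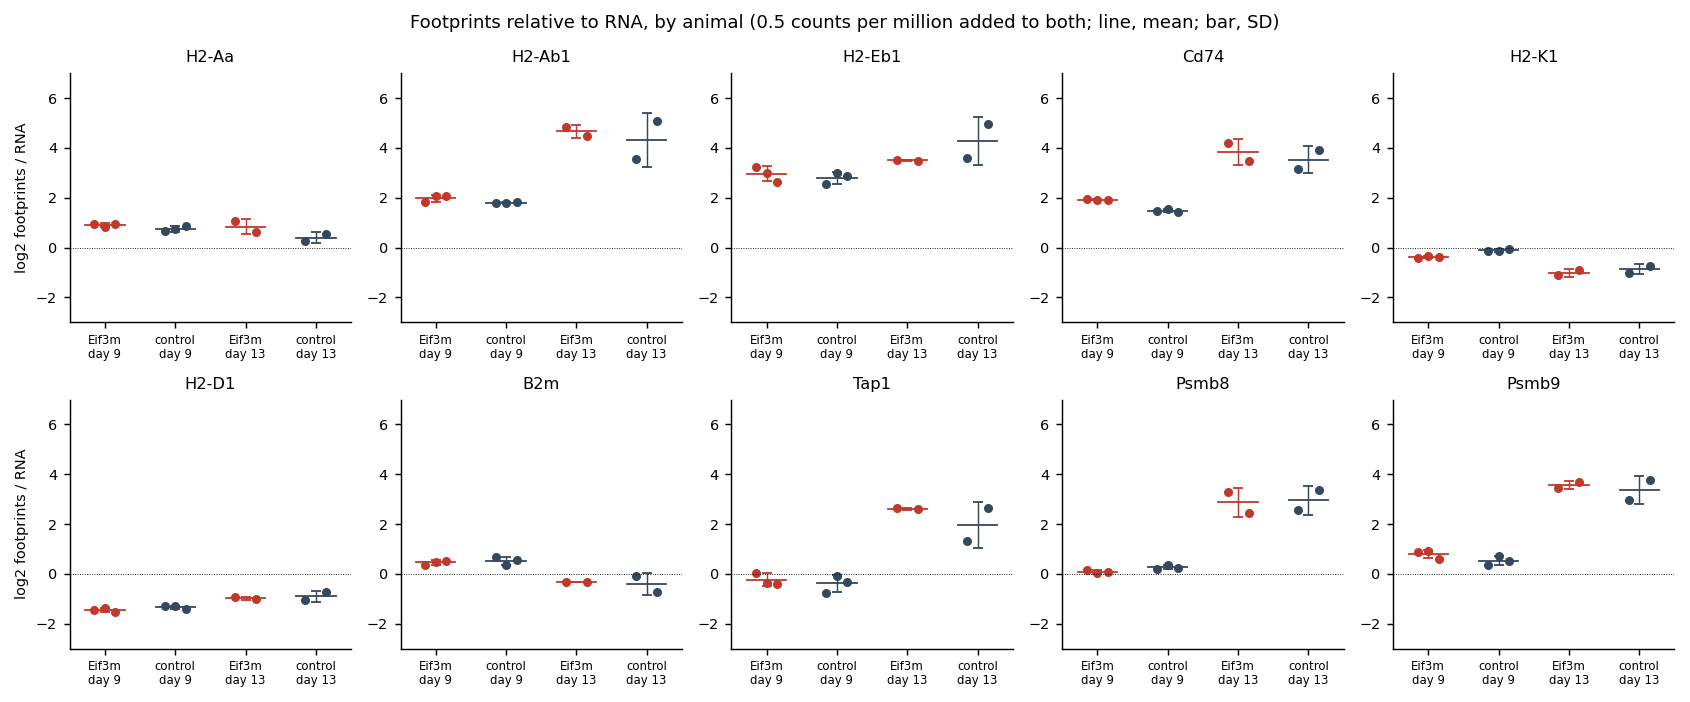
Log2 ratio of footprints to RNA for the 10 genes, with 1 point per mouse, 0.5 CPM added to both values, the mean as a line and the SD as a bar. Eif3m and control livers of a day lie close together for most genes, the day 9 Cd74 ratios being 1.92 ± 0.02 and 1.48 ± 0.05, while the step between the days in Tap1, Psmb8, Psmb9, Cd74 and H2-Ab1 accompanies the change of RNA kit.

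A further question was whether the regulators and the rest of the pathway moved with these genes. Ciita, which encodes the class II coactivator, was higher in day 9 Eif3m livers, with RNA of 3.24, 3.42 and 3.04 CPM, against 1.79, 1.98 and 1.71 CPM in control livers (0.82 ± 0.22, adjusted p = 0.049). Its day 9 footprints were 3.05, 1.67 and 5.00 CPM in Eif3m livers, against 0.903, 1.03 and 1.35 CPM in control livers (1.51 ± 0.45, adjusted p = 0.028). Every Eif3m liver was higher in both assays, as for 18.9% of tested genes in RNA and 15.6% in footprints. The day 9 Ciita footprints rest on 6 to 32.5 counts per library. Alternatives were read for the 10 genes only, so how the Ciita calls depend on single libraries was not tested. At day 13 Ciita did not pass in RNA (-1.37 ± 0.54, adjusted p = 0.11) or footprints (1.06 ± 1.13, adjusted p = 0.62), at no more than 1.32 CPM in any library. Nlrc5, the class I coactivator gene, had no call, with changes of 0.09 ± 0.25 in day 9 RNA and -0.25 ± 0.38 in day 13 RNA. Irf1, an interferon-induced activator of class I, Tap1 and Psmb9 promoters, fell in day 13 RNA, with 4.33 and 5.42 CPM in Eif3m livers against 10.7 and 6.84 CPM in control livers (-0.88 ± 0.25, adjusted p = 0.032). Its footprints did not pass at day 13 (-0.26 ± 0.23, adjusted p = 0.54). Of the 14 regulators tested in RNA, 1 rose at day 9 (2.48% of all tested genes did), while 3 fell at day 13 (9.87% did), the others being Rfx5 (-1.67 ± 0.38, adjusted p = 0.012) and Nfyb (-0.76 ± 0.21, adjusted p = 0.026), which encode factors that bind these promoters.

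Of 58 further genes of antigen presentation and its regulation, 57 were in the table. In day 9 RNA 4 of 56 tested rose and 3 fell (2.48% and 3.19% of all tested genes), and in day 9 footprints 2 of 51 rose and 7 fell (6.84% and 7.90%). At day 13, 1 rose and 16 fell in RNA (6.09% and 9.87% of all tested genes), and 1 rose and 13 fell in footprints (6.12% and 6.26%). Their median changes at day 13 were -0.50 in RNA and -0.25 in footprints, against -0.16 and 0.02 over all genes tested. No efficiency call was found among the 55 tested.

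Of the class II accessory genes, 1 of 10 rose in day 9 RNA and 1 of 8 in day 9 footprints. At day 13, 1 rose and 4 fell in RNA and 3 fell in footprints. Over all tested genes, 2.48% rose in day 9 RNA and 6.84% in day 9 footprints. The day 13 shares were 6.09% higher and 9.87% lower in RNA, and 6.26% lower in footprints. Ctss, the endosomal protease cathepsin S that trims the invariant chain, fell to 30.2 ± 5.81 CPM in Eif3m RNA, against 71.2 ± 14.0 CPM in control RNA (SD, n = 2 each; -1.22 ± 0.20, adjusted p = 0.0021). Its footprints were 26.3 ± 8.13 CPM in Eif3m livers and 63.9 ± 0.463 CPM in control livers (-1.37 ± 0.23, adjusted p = 0.00047). H2-DMb1 and H2-DMb2, beta chains of the H2-M molecule that loads peptides onto class II, fell in day 13 footprints (-2.26 ± 0.50 and -1.84 ± 0.48, adjusted p = 0.0049 and 0.014). H2-DMb1 had 1.26 ± 0.157 CPM in Eif3m livers and 6.25 ± 0.181 CPM in control livers (SD, n = 2 each). H2-DMb2 had 1.39 ± 0.35 CPM and 5.70 ± 0.148 CPM, and the Eif3m values of both genes rest on few reads. H2-DMa, the alpha chain of H2-M, was higher in day 9 footprints (0.95 ± 0.24, adjusted p = 0.011). Ifi30, an endosomal thiol reductase, fell in day 13 RNA (-1.40 ± 0.38, adjusted p = 0.026). The protease gene Ctsl went the other way, rising in RNA at day 9 (0.84 ± 0.18, adjusted p = 0.018) and at day 13 (1.71 ± 0.23, adjusted p = 0.00047).

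Among 18 other class I heavy chain genes tested in RNA, 2 rose and 3 fell at day 9 and 7 fell at day 13. The shares over all tested genes were 2.48%, 3.19% and 9.87%. Of 15 tested in footprints, 4 fell at day 9 and 6 at day 13 (7.90% and 6.26% of all tested genes). Cd1d1, whose product presents lipids, was lower on both days in both assays, at 83.1 ± 10.3 CPM in day 9 Eif3m RNA and 153 ± 5.80 CPM in control RNA (SD, n = 3 each; -0.88 ± 0.12, adjusted p = 0.0018). Its day 13 footprints were 77.1 ± 8.76 CPM in Eif3m livers and 197 ± 8.67 CPM in control livers (SD, n = 2 each; -1.34 ± 0.17, adjusted p = 3.1e-05). H2-Q10, a secreted class I chain known from mouse liver, was lower in footprints on both days (-0.73 ± 0.14 and -0.95 ± 0.17, adjusted p = 0.0011 and 0.0010). H2-Q1 fell in both assays on both days, with -1.52 ± 0.21 in day 9 footprints and -1.63 ± 0.30 in day 13 footprints (adjusted p = 7.0e-05 and 0.0012). Mr1, which presents vitamin B metabolites, fell in day 9 RNA (-1.10 ± 0.17, adjusted p = 0.0038), and H2-Q7 was higher there (1.33 ± 0.24, adjusted p = 0.0086). The H2-Q genes are near copies of each other, so their values share the uncertainty named for H2-K1 and H2-D1. H2-M3 fell in day 13 RNA (-1.96 ± 0.38, adjusted p = 0.0049), and H2-L in day 13 footprints (-0.57 ± 0.16, adjusted p = 0.020). H2-M3 was scarce in that RNA, at 0.528 CPM on average in Eif3m livers and 2.07 CPM in control livers.

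Of 11 peptide loading and trimming genes, none was called in day 9 RNA, where Calr and Pdia3, the most abundant, changed by -0.30 ± 0.13 and -0.29 ± 0.13 (adjusted p = 0.20 and 0.22). In day 9 RNA 5.67% of all tested genes were called. In footprints 3 of the list fell at day 9 and 4 at day 13 (7.90% and 6.26% of all tested genes). Tapbp, which encodes tapasin, the bridge between Tap1 and the class I heavy chain, had footprints of 118 ± 21.7 CPM in day 9 Eif3m livers and 167 ± 15.1 CPM in control livers (SD, n = 3 each; -0.50 ± 0.14, adjusted p = 0.016). At day 13 its footprints were 81.1 ± 9.23 CPM in Eif3m livers and 177 ± 7.29 CPM in control livers (SD, n = 2 each; -1.14 ± 0.18, adjusted p = 0.00024). Psmb10, the remaining immunoproteasome subunit gene, fell in day 13 footprints, to 36.0 ± 3.91 CPM in Eif3m livers against 67.5 ± 14.2 CPM in control livers (-0.89 ± 0.23, adjusted p = 0.015). None of the constitutive counterparts was called lower: Psmb6 footprints were higher at day 13 (286 ± 37.8 CPM in Eif3m livers and 207 ± 2.16 CPM in control livers, 0.47 ± 0.15, adjusted p = 0.047), and Psmb5 and Psmb7 changed by 0.32 ± 0.15 and -0.01 ± 0.15 (adjusted p = 0.19 and 0.98). Erap1, an aminopeptidase that trims class I peptides, and Canx, the chaperone calnexin, also fell in day 13 footprints (-0.60 ± 0.17 and -0.50 ± 0.16, adjusted p = 0.023 and 0.040). In day 13 RNA, where 9.87% of all tested genes were called lower, Tapbp and Tap2 alone of this list were called. Tap2, which encodes the partner of Tap1, fell by -1.16 ± 0.27 (adjusted p = 0.012). Tapbp fell by -2.29 ± 0.44 (adjusted p = 0.0050). Its RNA was 2.65 ± 0.732 CPM in Eif3m livers and 13.8 ± 9.68 CPM in control livers (SD, n = 2 each), so the control livers differed widely.

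Interferon-stimulated genes were called in both directions at day 9, and at day 13 most of the list did not pass, with more calls lower than higher. In RNA 4 of 25 rose and 2 fell at day 9, and 1 rose, 9 fell and 15 did not pass at day 13. In footprints 4 of 23 rose and 4 fell at day 9, and 7 fell and 16 did not pass at day 13. Over all tested genes, 2.48% rose and 3.19% fell in day 9 RNA, and 6.09% rose and 9.87% fell in day 13 RNA. For footprints the shares were 6.84% higher and 7.90% lower at day 9, and 6.26% lower at day 13. The median change of the listed genes at day 13 was -0.99 in RNA and -0.89 in footprints, against -0.16 and 0.02 over all genes tested. Gbp2, an interferon-gamma-inducible guanylate-binding protein, was higher at day 9 in RNA (0.74 ± 0.16, adjusted p = 0.019) and footprints (0.88 ± 0.17, adjusted p = 0.0016). Gbp4 was higher in day 9 RNA (1.32 ± 0.25, adjusted p = 0.0093), where the interferon-inducible genes Ifit1 and Ifit3 were lower (-1.31 ± 0.26 and -1.14 ± 0.27, adjusted p = 0.013 and 0.028). Iigp1, an interferon-inducible GTPase, was lower in footprints at day 9 (-0.74 ± 0.15, adjusted p = 0.0021) and at day 13 (-1.89 ± 0.20, adjusted p = 5.0e-06), and Igtp and Irgm2, of the same GTPase family, fell in day 13 RNA (-1.99 ± 0.32 and -1.61 ± 0.28, adjusted p = 0.0016 and 0.0027).

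Markers of the cell types known to carry class II differed among themselves in how they changed, and in bulk tissue fewer cells of a type and less RNA per cell cannot be told apart. The summed CPM of 6 pan-leukocyte markers in footprints was 100.9 to 108.7 in day 9 Eif3m livers and 60.6 to 67.6 in control livers, with 4 of the 6 genes higher, and 62.9 to 65.7 in day 13 Eif3m livers and 70.6 to 78.04 in control livers, with none called. In RNA it was 59.6 to 74.99 and 46.6 to 51.6 at day 9 (Eif3m and control livers), and 17.01 to 26.6 and 36.4 to 41.4 at day 13. Over all tested genes, 6.84% were called higher in day 9 footprints and 12.4% were called in day 13 footprints. The 8 monocyte and macrophage markers summed to 267 to 305 CPM in day 9 Eif3m footprints and 163 to 200 CPM in control footprints, and to 169 to 220 CPM in day 13 Eif3m footprints and 262 to 268 CPM in control footprints. The summed footprints of 7 Kupffer cell markers were lower in Eif3m livers on both days, and calls of the single markers are not given here. This Kupffer cell sum was 260 to 301 CPM in Eif3m livers against 334 to 408 CPM in control livers at day 9, and 153 to 159 CPM against 254 to 302 CPM at day 13. The 9 dendritic cell markers summed to 6.31 to 9.05 CPM in day 9 Eif3m footprints and 2.18 to 4.02 CPM in control footprints, and at day 13 the groups overlapped, at 5.13 to 8.59 CPM and 5.13 to 8.35 CPM, with Xcr1 at 0 in the control libraries. The 7 sinusoidal endothelium markers summed to 547 to 686 CPM in day 9 Eif3m footprints and 531 to 576 CPM in control footprints, and to 563 to 618 CPM in day 13 Eif3m footprints and 590.1 to 595 CPM in control footprints, so the groups overlapped on both days. In RNA they did not overlap at day 13, with 142 to 148 CPM in Eif3m livers and 199.5 to 208 CPM in control livers. The 5 B cell markers stayed at or under 6.24 CPM in every library and averaged 2.71 CPM in day 9 Eif3m RNA and 4.65 CPM in control RNA. The part of these cell types in the class II results was not tested.

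**Figure D5:**
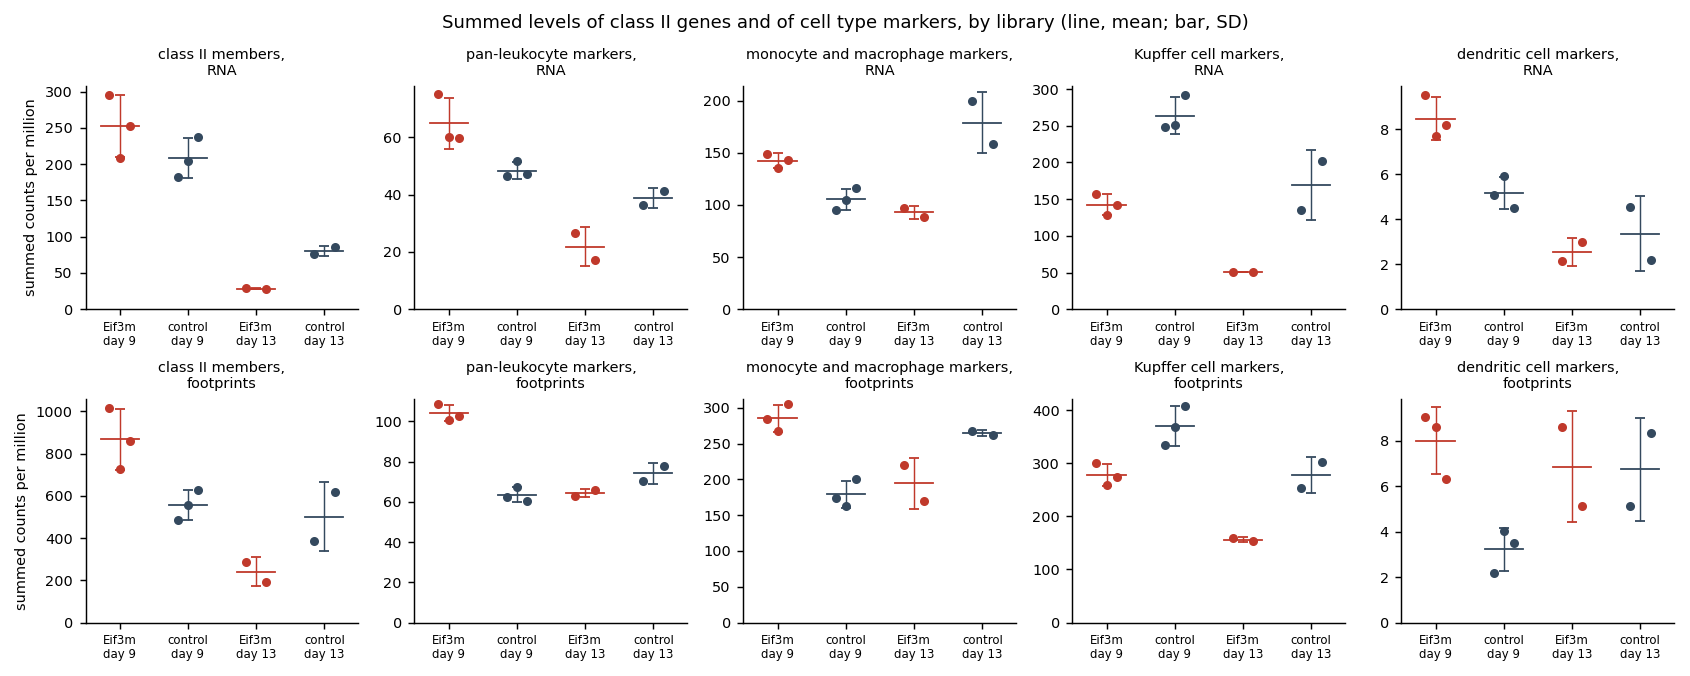
Summed CPM of the 4 class II genes and of marker genes of 4 cell classes in each library, RNA above and footprints below, with 1 point per mouse, the mean as a line and the SD as a bar. In footprints, pan-leukocyte markers are 100.9 to 108.7 CPM in day 9 Eif3m livers and 60.6 to 67.6 CPM in control livers, and Kupffer cell markers are lower in Eif3m livers on both days.

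The genes whose footprint profile over the 10 footprint libraries was most like the mean profile of the class II genes were Aif1, LOC102641359, Mpeg1, Ctss and Lsm6, with root mean square differences of 0.218 to 0.315 on the log2 scale among 8713 genes compared. The 5 genes most like the mean class I profile were Arfgef2, Cttn, Dnase2a, Cpox and Pkd1, with differences of 0.0869 to 0.108. These libraries share their depth and their cell makeup, so likeness is a description only.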

How the data were processed

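Values are expected counts per gene symbol in 1 table as deposited by the authors: 44.3% of nonzero values are not whole numbers (tolerance 0.01). Per the submitters' processing notes, cutadapt, Bowtie and Bowtie2 were used; versions, genome build, counting rule and use of strand: not given in the sources used here. Per the labels' protocols, RNA was purified with Qiagen RNeasy, and footprint libraries were made with ART-seq. Without strand, reads of Cd74 and Mir5107 and of B2m and Patl2, which overlap in RefSeq, cannot be told apart.

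Counts were rounded to whole numbers, filtered with filterByExpr and scaled by TMM within each assay. RNA (16444 genes) and footprints (12213 genes) were each tested over 10 libraries in 4 groups with edgeR 4.0.16 (robust quasi-likelihood F test, two-sided, R 4.3.3), and efficiency (14236 genes) in 1 model over 20 libraries. The call threshold was 0.05 on the p adjusted by Benjamini-Hochberg over all genes tested, and an SE is the absolute log2 change over the root of the F statistic. Replicates are separate mice, and replicate pairs had a chi-square per gene of 4.33 to 94.1, so they vary beyond counting error. The RNA and footprint libraries of 1 animal are paired by the labels' animal numbers (r of their deviations 0.0569 to 0.353). The main efficiency model did not use this pairing and treated the 20 libraries as independent. A block for animal was fitted as an alternative only.

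The members, lists and tests were chosen with earlier results of these data known. The rule for named genes was the 10 members, Eif3m, 7 fixed regulators and constitutive subunits (1 is not reported here), up to 4 called genes of each other list by smallest p in each comparison within a day (the 2 most abundant where none was called), and the 5 genes most like each profile. Scripts were tested on simulated data. Alternatives were DESeq2 size factors, library totals, TMM over all libraries, 2 other filters, DESeq2 1.42.0, each day alone, a replicate block, and leaving out every library or animal once. A group left with 1 library borrows its spread from the other groups. No transcript lengths were used, so levels are not compared between genes, apart from the ranking of footprint to RNA ratios in control liver.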

Additional observations from a re-analysis of the deposited data

Results flagged for a closer look

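The effect of Eif3m siRNA differed between day 13 and day 9, by edgeR's test of the difference itself, for 5 genes of antigen presentation in RNA (the 10 genes and 56 others were tested) and 5 in footprints (the 10 and 51 others), all with a lower effect at day 13. Over all genes tested, 1.23% differed in RNA and 0.819% in footprints. With 1 library left out, the calls among the 10 genes dropped to 0 in some fits of each assay. In RNA the differences of the log2 changes (day 13 minus day 9) were -1.67 for Cd74, -1.48 for Ctss, -1.70 for H2-Aa, -2.45 for H2-Ab1 and -2.08 for H2-M3. In footprints they were -1.78 for Cd74, -1.79 for Ctss, -1.74 for H2-Ab1, -2.92 for H2-DMb1 and -2.31 for H2-DMb2. Day 13 Eif3m livers averaged 1.26 CPM of H2-DMb1 and 1.39 CPM of H2-DMb2 in footprints, and 0.528 CPM of H2-M3 in RNA. The differences of these genes therefore rest on few reads. Cd74, Ctss and H2-Ab1 were called in both assays. The RNA differences span the change of library kit, and the footprint differences do not, although the days are separate sets of mice.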

How the results depend on the processing

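Over 38 settings, 1846 alternative values of the 10 genes were computed: 1732 kept their direction and side of the threshold, 63 lost a call, 51 gained one and 0 reversed a called direction; 73 values changed sign while uncalled in both fits. Library totals as the only scaling moved the median log2 change of all genes to 0.12 in day 9 RNA, 0.25 in day 9 footprints and 0.34 in day 13 footprints, and called genes then split 2302 higher and 451 lower (day 9 footprints; 835 and 965 with TMM), 2007 and 351 (day 13 footprints; 748 and 765), 881 and 363 (day 9 RNA; 407 and 525) and 1504 and 1014 (day 13 RNA; 1002 and 1623). In day 13 RNA, DESeq2 size factors in edgeR gave 1253 higher and 1297 lower. Of the 10 genes, library totals gave 1 call in day 9 RNA (0 with TMM), 5 in day 9 footprints (2), 2 in day 13 footprints (4) and 2 between days in control footprints (1). With no filter beyond 1 count there was 1 call in day 9 RNA, 5 for the RNA day difference (3), 4 for the footprint day difference (2) and 2 between days in control footprints. Calls over all genes rose too, to 1583 of 26743 in day 9 RNA (932 of 16444 in the main fit). For the RNA day difference they rose to 1034 of 26743 (202 of 16444 in the main fit). A mean of at least 5 CPM gave 1 call in day 9 RNA, in a fit that called 994 of 9169 genes. DESeq2 gave 1 in day 9 RNA, 1 in day 9 footprints and 4 for the footprint day difference. Over all genes it called 1636 of 16444 in day 9 RNA. Each day fitted alone gave 2 calls in day 9 RNA, 1 in day 9 footprints and 7 in day 13 footprints, while H2-Ab1 in day 13 RNA lost its call (adjusted p = 0.061). The cause of these shifts was not tested. Shares over all genes are not given here for footprints with another filter or DESeq2, for each day alone, or with 1 library left out. Counts from those fits are therefore not read as a result about the 10 genes. Leaving out 1 library gave 0 to 2 calls in day 9 RNA, 2 to 7 in day 13 RNA, 0 to 7 for the RNA day difference, 0 to 3 in day 9 footprints, 0 to 6 in day 13 footprints, 0 to 3 for the footprint day difference, 1 to 1 between days in control footprints and 2 to 6 in Eif3m footprints; efficiency stayed at 0 in every alternative, the animal block included. With 2 or 3 mice per group, replicate numbers do not pair mice between siRNA groups: correlations of same-numbered deviations were -0.123 to 0.193. The replicate block gave 1 call in each of the RNA day difference, day 9 footprints and the footprint day difference.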
